A study of Mus musculus with 12 samples.

Results

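Foxq1, Foxf2 and Foxc1 are neighbouring forkhead genes on mouse chromosome 13. They were examined by taking each gene body with 100 kb on either side (mm10) and every listed interval of H3K27ac and every listed GLI1 site in it. The windows join into 1 stretch of 452466 bp (chromosome 13, 31458170 to 31910635). It held 21 intervals from dox cells and 20 from control cells, which merged into 31 of the 94481 H3K27ac regions of the genome, and 3 of the 2605 GLI1 sites. Foxq1 spans 31558170 to 31560976 (gene ID 15220), Foxf2 31625816 to 31631406 (gene ID 14238) and Foxc1 31806646 to 31810635 (gene ID 17300). Foxq1 and Foxf2 are 64839 bp apart, and Foxf2 and Foxc1 are 175239 bp apart. Gmds, the gene of a GDP-mannose dehydratase, is the fourth protein-coding gene with a part in the window, and its near end lies downstream of Foxc1.

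The cells were cardiac progenitors differentiated from the mouse embryonic stem cell line GLI1-FTA (strain A2Lox.cre), all harvested on day 6. The induced cells, labelled GLI1 OE and called dox here, had 500 ng/ml doxycycline for 24 hours from day 5, and the control cells were untreated. Streptavidin beads captured the tagged GLI1 and an antibody captured H3K27ac, with 2 samples in each of the groups used, namely GLI1 IP from dox cells, H3K27ac from dox cells and H3K27ac from control cells. All samples come from 1 line, and no line without the tagged gene was analysed here, so an effect of GLI1 and one of doxycycline cannot be told apart. The labels do not give the level of induced GLI1.

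Hedgehog ligands bind the receptor Ptch1, which releases Smo and lets GLI transcription factors act on their targets; GLI1 acts as an activator and is itself a target. H3K27ac marks active promoters and enhancers. Forkhead proteins bind DNA through a winged-helix domain. Foxf2 is a mesenchymal factor of gut and palate and a known Hedgehog-responsive gene, Foxc1 acts in paraxial and cardiac mesoderm and in the eye, and Foxq1 is known for its roles in hair and in the gastric epithelium. The paralogous genes Foxf1, Foxc2 and Foxl1 form a like cluster on chromosome 8.

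The promoters of Foxf2 and Foxc1 are shown because H3K27ac covered both in dox cells but only that of Foxc1 in control cells. The 250 bases before each gene's start are given 5′ to 3′ on the + strand (RefSeq, GRCm38.p6), at chr13:31625566-31625815 for Foxf2 and chr13:31806396-31806645 for Foxc1. Capitals mark matches on either strand to GGGCGG (the GC box), CCACCC (the core of the GLI motif) and CCAAT.
Foxf2: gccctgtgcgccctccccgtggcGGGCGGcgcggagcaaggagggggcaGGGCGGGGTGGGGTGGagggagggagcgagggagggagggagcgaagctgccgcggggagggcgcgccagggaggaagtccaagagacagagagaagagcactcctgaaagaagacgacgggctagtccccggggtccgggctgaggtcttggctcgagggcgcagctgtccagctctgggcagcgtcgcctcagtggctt
Foxc1: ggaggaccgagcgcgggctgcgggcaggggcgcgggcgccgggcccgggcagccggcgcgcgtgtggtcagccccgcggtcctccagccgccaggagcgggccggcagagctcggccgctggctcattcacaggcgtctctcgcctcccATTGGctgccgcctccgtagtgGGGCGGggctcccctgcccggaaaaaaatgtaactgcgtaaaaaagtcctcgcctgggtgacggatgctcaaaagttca

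Both promoters were rich in G and C, at 71.6% in Foxf2 and 70.8% in Foxc1 against a median of 52.4% over 32817 promoters. They held 21 and 29 CG dinucleotides, against a median of 6. The Foxf2 promoter had 2 GC boxes and 2 copies of the GLI core, the first copy sharing 1 base with the second GC box and 1 with the other copy, while Foxc1 had 1 GC box, 1 CCAAT and no GLI core. A GC box stood in 32.7% of all promoters, the GLI core in 28.1% and CCAAT in 33.8%. The full motif GACCACCCA was in neither promoter on either strand and in 0.225% of all of them. With 50 bases past the start added to the window, it was in 0.253% of promoters, and in 4 of the 25 that hold a whole GLI1 site. The authors had held the GLI1 list to sites with a Gli motif. A higher share among those 25 follows from that choice and is no test of enrichment.

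At Foxf2 an H3K27ac domain was listed in dox cells where control cells had none. Its main interval ran over 6906 bp, from −2688 to 4217 bp relative to the Foxf2 start, and its fold enrichment, the authors' ratio of pileup to local background, reached 21.4. No control interval lay within 59768 bp of the gene. With 7 smaller intervals beside it, the dox list covered 9404 bp of a stretch of 12476 bp (31619970 to 31632445), and all 8 regions in it were in the dox list alone. All 3 GLI1 sites of the window were at this gene.

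**Figure D1:**
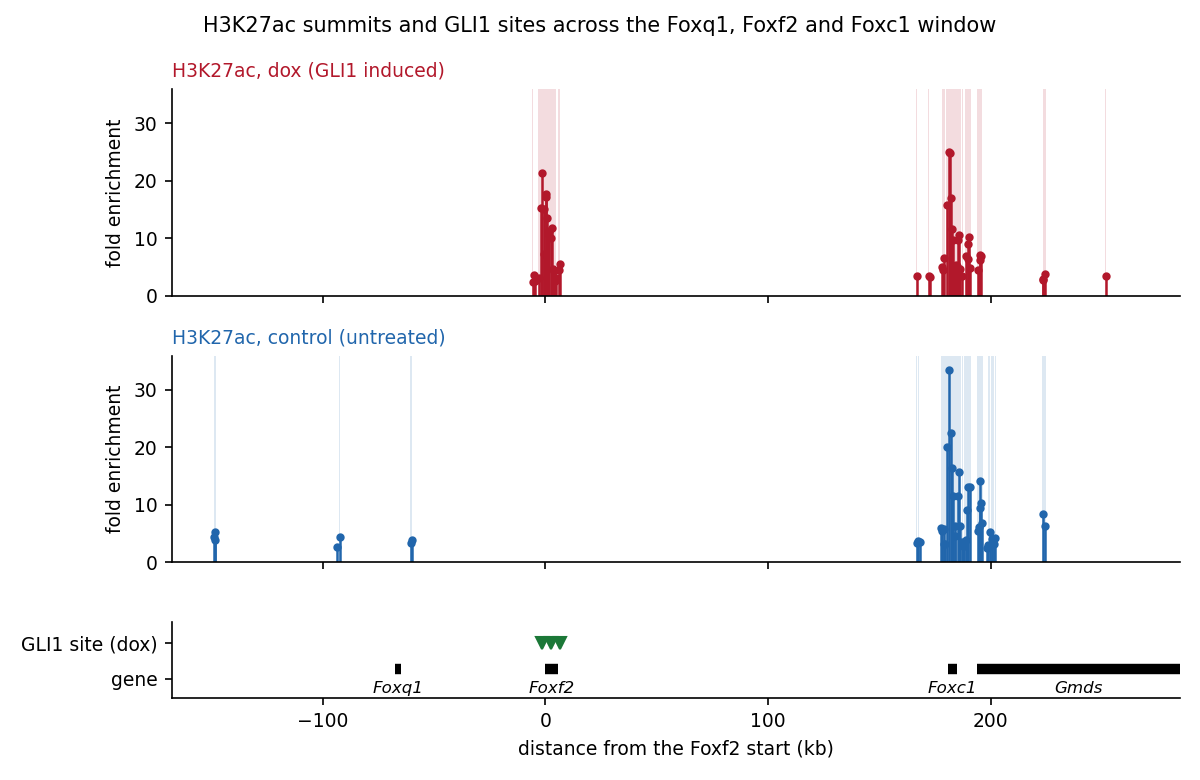
Fold enrichment of each H3K27ac summit (points on stems, shading for the intervals) in dox cells (top) and control cells (middle), with GLI1 sites and protein-coding genes (bottom), by distance from the Foxf2 start in kb. Summits at Foxf2 reach 21.4 in dox cells and are not listed in control cells, those at Foxc1 reach 25.1 in dox and 33.4 in control cells, and none lie on Foxq1.

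The main Foxf2 interval had 13 summits, so the mark was not a single point. The highest, 21.4, stood at −1377 bp from the gene's start, with a pileup of 98 reads (95% Poisson interval 79.6 to 119). At the start itself, summits 81 and 349 bp downstream had fold enrichments of 17.1 and 17.7. Farther inside the gene the values were lower, at 10.1 and 11.9 at 2361 and 2969 bp and 4.32 at 4059 bp. Between the upstream and the promoter summits lay a lower one of 7.28, at −726 bp. Part of these differences lies in the local background. The summit at −726 bp had 53 reads over a background of 6.41, and those on either side had 98 and 69 reads over 3.63. The summit at 2361 bp had 62 reads over 5.25, as many reads as one of 13.6 at 740 bp over 3.63. The 7 smaller intervals had fold enrichments of 2.47 to 5.47, the strongest of them 97 bp past the gene's end.

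These values can be set against the limit of detection and against other regions. A pileup of 98 reads in the dox list corresponds to 76.4 reads at the depth of the control list, where the weakest summit over the uniform background was listed at 9 reads and a fold enrichment of 2.61. Across the genome 35.5% of regions were in the dox list alone. Among those 33496 regions, 0.412% had a fold enrichment at least as high as the Foxf2 interval, 0.0597% were at least as wide, 0.0508% were both, and 0.0537% had at least as many summits. Of the 603 genes with a region in dox alone at their ends, 1.16% had a value at least that of Foxf2. Each list pools the 2 samples of a group before peaks were called, so no spread between samples exists, no test between conditions was possible, and intervals cover counting error only. In these bulk samples more cells with the mark at Foxf2 and more mark per cell cannot be told apart.

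**Figure D2:**
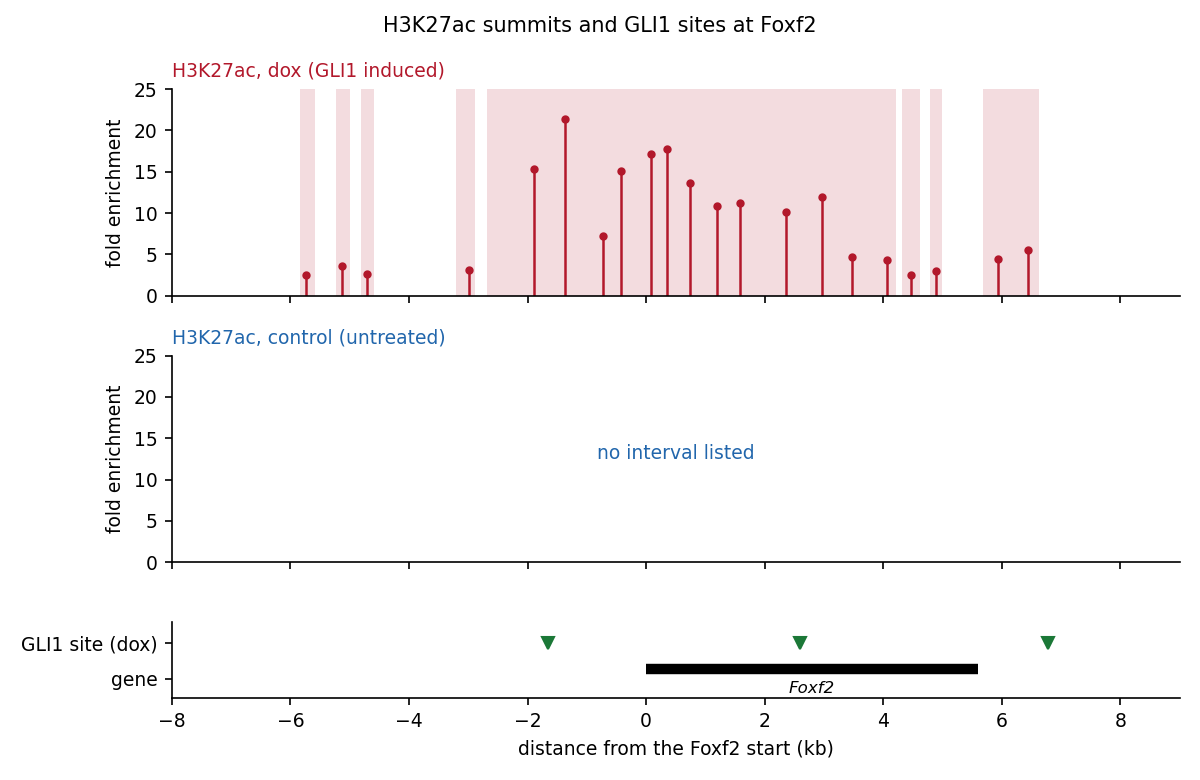
Fold enrichment of H3K27ac summits (points on stems, shading for the intervals) around Foxf2 in dox cells (top) and control cells (middle), with GLI1 sites and the gene (bottom), by distance from the Foxf2 start in kb. The dox list has 21 summits from 2.47 to 21.4 in this view and the control list has none; the first and second GLI1 sites fall inside the widest interval and the third just past the last one.

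The 3 GLI1 sites were spread over the gene at near-equal spacing. The first (31624103 to 31624203) was centred at −1663 bp from the start and had a −log10 q of 32.8. The second (31628367 to 31628467) lay inside the gene, 2601 bp past the start, with 43.0. The third (31632538 to 31632638) lay 1182 bp past the gene's end, with 16.1. Gaps of 4163 and 4070 bp separated them. In strength they were ordinary: 36.4% of all sites had a −log10 q at least that of the second, 47.6% at least that of the first and 82.2% at least that of the third. Their sequences are not given, since no genome of this build was used here.

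Relative to H3K27ac, the first and second sites lay inside the main dox interval and the third 92 bp outside the nearest one. The first sat between summits 233 bp to its left and 286 bp to its right, which are the upstream summits of 15.3 and 21.4. The second sat between summits 240 and 368 bp away, of 10.1 and 11.9. Lying between summits was common: it held for 93.5% of the 1702 sites in dox intervals with 2 or more summits, at a median distance of 270 bp to the nearest summit. None of the 3 sites was in a control interval. Over all sites 75% lay in a dox interval, and 50.6% in a dox and no control interval. GLI1 sites of untreated cells were not analysed here.

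Foxq1 had no H3K27ac region on it or within 1000 bp of its ends in either list. Of the 20295 protein-coding genes analysed, 46.3% likewise had none within 1000 bp of their ends, but regions farther inside those genes were not counted. By the same count 48.5% of genes were marked at an end in both conditions, 2.97% only in dox cells and 2.22% only in control cells. The 4 regions that lay nearer to Foxq1 than to its neighbours were all in the control list alone, against 27.1% of regions in the genome, and all were weak. The closest (31565222 to 31566047), 4245 bp from the gene on the side of Foxf2, over the long noncoding RNA genes Gm11377 and 1700018A04Rik, had a fold enrichment of 3.92 and a pileup of 14 reads. The others stood at 2.61, 4.45 and 5.22, between 24467 and 80271 bp on the other side of the gene. Scaled to the depth of the dox list these 4 pileups are 11.5 to 24.4 reads, and the dox list began at 11 reads over its uniform background, so the weakest stood close to that limit. The nearest dox interval was the first of the Foxf2 stretch, 58993 bp away. The GLI1 sites of Foxf2 lay 63126 to 71561 bp from Foxq1, so Foxq1 and Foxf2 both count the same 3 sites within 100 kb and Foxc1 counts 0. At least 3 sites within 100 kb were found for 2.11% of genes.

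Foxc1 was acetylated in both conditions. Its region of 7154 bp (31805178 to 31812331) covered the whole gene and had a highest fold enrichment of 25.1 in dox cells and 33.4 in control cells. Only 2.36% of the 35389 shared regions had a control value as high, and 1.1% were as wide. The log2 ratio of dox over control was centred by taking off the median over shared regions, which was −0.13, and on this scale the region stood at −0.28, and 32.9% of shared regions were at or below that value. The nearest GLI1 sites were 174007 bp upstream, those at Foxf2, and 191402 bp downstream inside Gmds.

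**Figure D3:**
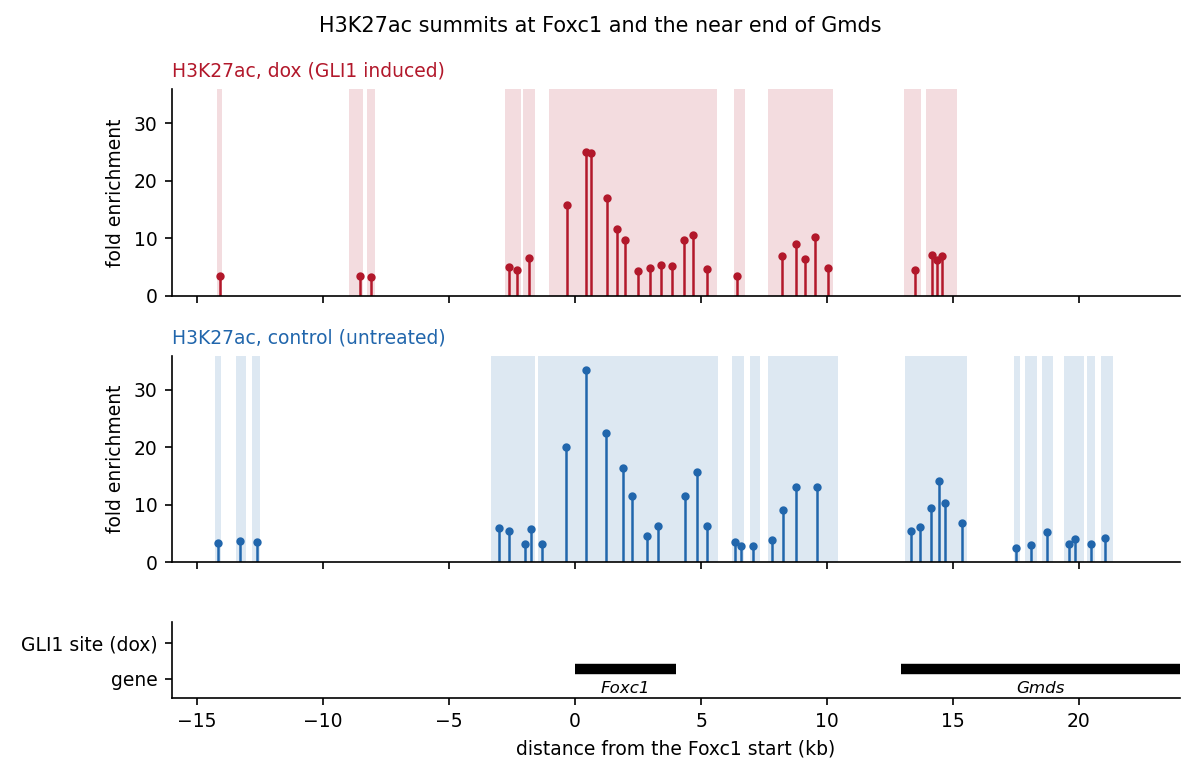
Fold enrichment of H3K27ac summits (points on stems, shading for the intervals) around Foxc1 in dox cells (top) and control cells (middle), with the genes (bottom; no GLI1 site lies in this view), by distance from the Foxc1 start in kb. Summits over the gene stand in both lists, with tops of 25.1 in dox and 33.4 in control cells, and the 6 intervals inside Gmds from 17423 to 21335 bp past the start are listed for control cells alone.

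The strongest summit of the Foxc1 region was at nearly the same place in both lists. It lay 419 bp past the gene's start in dox cells and 433 bp past it in control cells. Of 13 dox and 11 control summits, 7 pairs were within 100 bp of each other, and 6 of these had a centred log2 ratio below 0. The lowest was −0.63, at 2000 bp in dox and 1921 bp in control cells, with fold enrichments of 9.72 in dox and 16.4 in control cells. The highest was 0.21, at 2967 bp in dox and 2868 bp in control cells, with 4.75 in dox and 4.50 in control cells. That pair had 21 reads in dox and 28 in control cells, which is −0.77 once scaled by the uniform backgrounds. On this measure all 7 pairs were below 0, but it is not centred, and its median over all shared regions is below 0 too. The pairs also lie in the same region. At the top of the region the pileup was 115 reads in dox and 127 in control cells, a log2 ratio of −0.50 after scaling by the backgrounds (exact 95% interval −0.88 to −0.13). The median of this measure over all shared regions, −0.27 (35276 regions), lies inside that interval, so a difference of Foxc1 from the middle of the shared regions was not detectable at this depth.

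Of the 19 regions nearest Foxc1, 3 were in the dox list alone, 7 were shared and 9 were in the control list alone. In the genome 35.5%, 37.5% and 27.1% of regions have these states. The 3 dox-only regions were weak, with fold enrichments of 3.35, 3.24 and 3.46. The centred log2 ratios of the 7 shared regions ran from −0.99 to 0.26, and 4 of them were below 0, against 50% by construction in the genome. None reached 1 in size in either direction, which 6.78% of shared regions did upward and 8.31% downward.

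**Figure D4:**
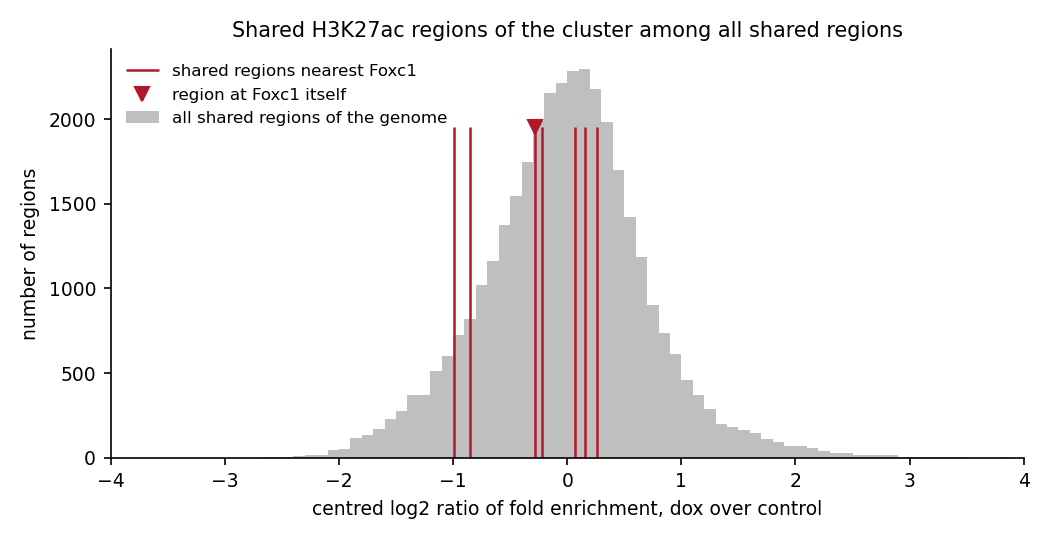
Number of shared H3K27ac regions of the genome (grey, 35389 in all) by centred log2 ratio of fold enrichment, dox over control, in steps of 0.1, with the 7 shared regions nearest Foxc1 as red lines and a triangle on that of the gene itself. The lines lie between −0.99 and 0.26, with Foxc1 at −0.28.

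The lowest ratios stood on the Gmds side. A region at the near end of Gmds (31819720 to 31822220) had a fold enrichment of 7.13 in dox and 14.1 in control cells, a centred log2 ratio of −0.85. Its pileups were 32 reads in dox and 59 in control cells, a scaled log2 ratio of −1.24 (exact 95% interval −1.91 to −0.60), with the genome median of −0.27 outside the interval. A region farther inside Gmds (31848933 to 31850642) had 3.84 in dox and 8.36 in control cells (−0.99; pileups of 23 reads in dox and 31 in control cells, scaled −0.79, interval −1.63 to 0.04). These strongest summits lie at different places in the 2 lists. At the place of the dox summit the control list had 36 reads, and the interval of the scaled log2 ratio, −1.83 to −0.21, lay below 0 but contained −0.27, the median for strongest summits. At the end of Gmds the control summit nearest that of dox had 50 reads, with an interval of −1.69 to −0.33. At or below the centred values of the 2 regions, −0.85 and −0.99, lay 11.5% and 8.6% of shared regions. Between them, 6 regions (31824069 to 31827981) were listed for control cells alone, at fold enrichments of 2.52 to 5.26 and pileups of 10 to 20 reads, which are 12.8 to 25.6 reads at the depth of the dox list. Regions upstream of Foxc1 and just past it showed other values: one 1586 bp before the gene (31803313 to 31805059) had 6.55 in dox and 6.01 in control cells (0.26), and one 3654 bp past it (31814290 to 31817079) had 10.3 and 13.1 (−0.22).

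Over the whole window the covered lengths of the 2 lists were close. The dox list covered 24658 bp and the control list 22893 bp, or 5.45% and 5.06% of the window, with median fold enrichments per interval of 3.46 and 3.99. Of the 31 regions, 11 were in dox alone, 7 shared and 13 in control alone (35.5%, 22.6% and 41.9%). In the genome these shares were 35.5%, 37.5% and 27.1%. Exact 95% intervals for the window were 19.2 to 54.6, 9.59 to 41.1 and 24.5 to 60.9, and each contains the share of the genome. They treat regions as independent, though 8 of the 11 dox-only ones are neighbours in the Foxf2 stretch, so they are likely too narrow. From the end of the Foxf2 stretch to the first region before Foxc1, 159915 bp held no region of either list. At the edges of the 100 kb rule, the outermost region inside on the Foxc1 side was a dox-only one of 3.46 (31877282 to 31877556), and the next one outside, 830 bp past the edge, was shared, with 6.40 in dox and 4.49 in control cells. On the Foxq1 side the outermost one inside was the control-only region of 5.22 (31476876 to 31477898), and the next one outside, 63945 bp past the edge, was dox-only with 3.89.

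In the forkhead family few genes were like Foxf2 in having H3K27ac at an end in dox cells alone. Of 44 genes, 4 did (Foxf1 with 40.2, Foxa2 with 34.0, Foxf2 with 21.4 and Foxd1 with 2.59), 19 in both lists, 1 (Foxs1, 3.89) in control alone and 20, Foxq1 among them, in neither. This is 9.09% in dox alone, against 2.97% of all genes analysed, and 7.32% (3 of 41) without the 3 neighbours. Foxd1 stood at the lowest value listed over the uniform dox background. Foxa2 is a factor of floor plate and endoderm. The median centred log2 ratio of the 19 was −0.11, against 0.14 over the 9843 genes measured in both lists.

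Among forkhead genes measured in both lists, Foxl1 (2.64), Foxc2 (2.42), Foxo1 (1.44), Foxa3 (0.62) and Foxn2 (0.51) had the highest centred log2 ratios. At or above 1 stood 3 of the 19, against 3.77% of all genes measured in both lists, and at or below −1 stood 1, against 2.04%. Foxh1, a partner of Smad proteins in Nodal signalling, had the lowest (−1.33), then Foxj1 (−0.86), Foxo3 (−0.38), Foxj2 (−0.37) and Foxj3 (−0.28). Foxc1 was at −0.28 too. A GLI1 site within 100 kb was found at 17 of the 44 genes (38.6%, against 21.2% of all genes), and at least 3 sites at 7 of them, against 2.11% of all genes. Foxf2 and Foxq1 are both counted there for the same 3 sites. Without the 3 neighbours 15 of 41 had a site and 5 of 41 at least 3. Shared sites remain in that count, since Foxf1, Foxc2 and Foxl1 are among the 5 and their joint window holds 6 sites in all.

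**Figure D5:**
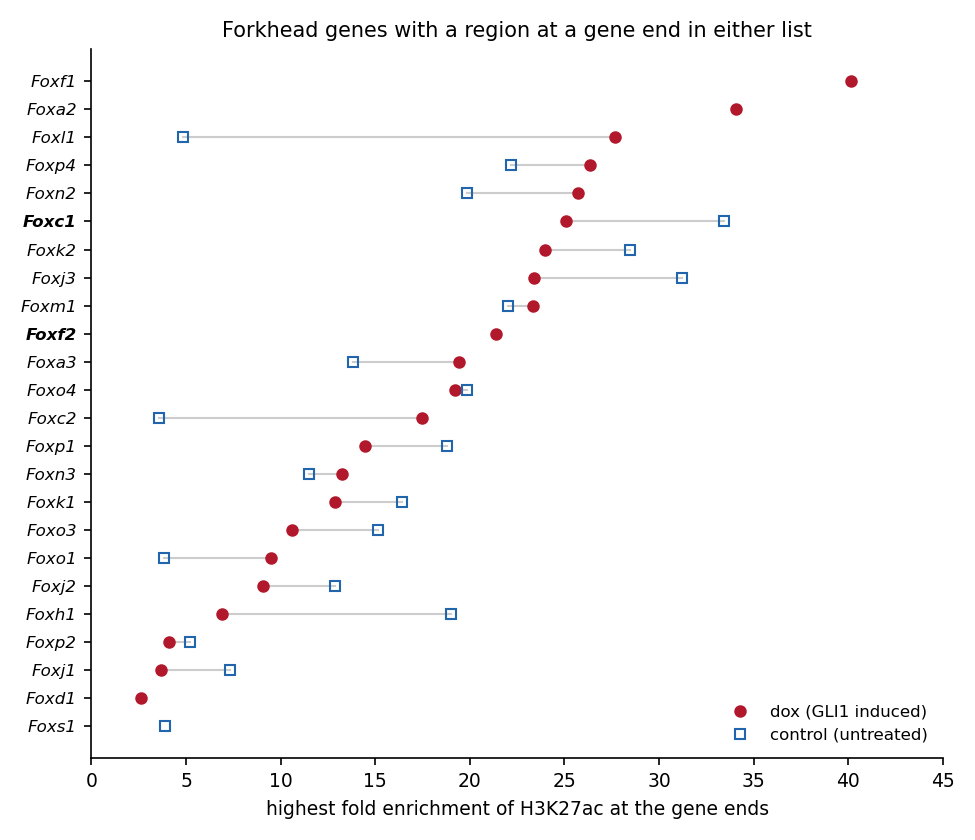
Highest fold enrichment of H3K27ac at the gene ends of the 24 forkhead genes with a region in either list, in dox cells (filled circles) and control cells (open squares), from the highest dox value at the top. Foxf2 (21.4) has a dox value alone, as do Foxf1, Foxa2 and Foxd1, and Foxc1 has 25.1 in dox and 33.4 in control cells.

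Set beside its paralogous cluster, the Foxf2 neighbourhood was alike in the Foxf gene and unlike in the Foxc gene. Foxf1 was listed in dox cells alone (40.2), as Foxf2 was (21.4). Foxc2, however, had 17.5 in dox and 3.57 in control cells, where Foxc1 had 25.1 and 33.4. The window of Foxf1, Foxc2 and Foxl1 was 246259 bp long and held 46 regions, 33 of them dox-only and 1 control-only. In the genome 35.5% of regions were dox-only and 27.1% control-only. This window held 6 GLI1 sites, all in dox intervals, as were 75% of all sites. The density was 2.44 sites per 100 kb, against 0.66 around Foxq1, Foxf2 and Foxc1. Window length follows the spacing of the genes, and the window of Foxq1, Foxf2 and Foxc1 includes 159915 bp without a region, which lowers its density. These are values of single pooled lists, and the difference between clusters was not tested.

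Of 25 genes of the Hedgehog pathway and known GLI targets, 19 were marked in both lists, 4 (Osr1, Foxd1, Tbx1 and Foxf1) in dox alone and 2 (Bmp2 and Kif7) in control alone, against 48.5%, 2.97% and 2.22% of all genes. Of the 4, Foxf1 had 40.2, while Tbx1 (3.74), Osr1 (3.67) and Foxd1 (2.59) were weak. The value of Foxd1 is the lowest listed over the uniform dox background. In control cells Bmp2 had 9.14 and Kif7 3.66. The median centred log2 ratio of the 19 was 0.35, against 0.14 over all genes. A GLI1 site lay within 100 kb of 20 of the 25, against 21.2% of all genes. Of the 19, 7 had a centred log2 ratio at or above 1 and 0 at or below −1, against 3.77% and 2.04% of all genes measured in both lists. Gli1, itself a pathway target, had fold enrichments of 35.4 in dox and 9.03 in control cells. Other genes of the list had lower values in dox cells. Gli3 had the lowest ratio (−0.89), with 17.7 in dox and 35.9 in control cells. Of 11 markers of cardiac progenitors, 6 were marked at an end in both lists and 1, Kdr (2.82), in dox alone. At the ends of 4 (Mef2c, Gata4, Nkx2-5 and Tbx5) neither list had a region. Over all genes these shares were 48.5%, 2.97% and 46.3%. Regions farther inside a gene were not counted, so these 4 genes cannot be called free of H3K27ac. Of the 6, Pdgfra had 5.14 in dox and 2.62 in control cells, Isl1 21.0 in dox and 20.2 in control cells, and Gata6 20.5 in dox and 26.7 in control cells. Hand1 had 11.5 in dox and 18.9 in control cells, Hand2 10.8 in dox and 24.5 in control cells, and Tnnt2 3.74 in dox and 10.4 in control cells. Of the 4 pluripotency markers Nanog and Sox2 had regions in both lists, of the 4 endothelial ones Pecam1 in both and Cdh5 in dox alone (3.13), of the 4 endoderm ones Foxa2 in dox alone and Cxcr4 in control alone, and of the 4 neural ones Nes in both. The part of such differences in the values at Foxf2 and Foxc1 was not tested.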

How the data were processed

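Values came from 3 lists, each made by the authors from the pooled replicates of a group, per the file names. The submitters' processing notes name MACS2 2.1.1, Bowtie2 2.3.2, SAMtools 1.5 and the build mm10, without their roles. The H3K27ac lists hold, per summit, the deposited fold enrichment (a ratio), −log10 p and −log10 q; the deposited score, the −log10 q times 10, was not used. The GLI1 list holds windows of 101 bp with the authors' −log10 q, per the file name replicated and with a Gli motif.

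Intervals sharing at least 1 bp were merged (Python 3.11.15, pandas 2.3.3), and log2 ratios of the highest fold enrichments were centred on all shared regions. A gene took the highest value of regions within 1000 bp of either annotated end (GRCm38.p6). Whole pileups returning fold enrichment and −log10 p within 0.01 were recovered for 99.92% of dox and 99.96% of control summits, with uniform backgrounds of 3.63 and 2.83 reads, whose ratio of 1.28 stood for depth; library sizes are unknown. Merging and recovery were tested on simulated data. Running peak numbers skip at places, and 1588 of 21883 protein-coding genes there were not analysed; none lay in the window. Genes were named by a rule, which took the 3 neighbours, the protein-coding genes of the window, the 5 highest and 5 lowest forkhead genes, those in 1 list alone and the 5 genes most like Foxf2. Noncoding genes under a region, Gli1, Gli3 and the lists' marker genes were named outside it, after their values were seen. Members and gene lists were chosen with earlier results of these data known.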

Additional observations from a re-analysis of the deposited data

How the results depend on the processing

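The ratio at Foxc1, −0.28 with centring, was −0.42 without it, −0.14 with width-weighted means and −0.33 at a −log10 q of at least 10, the last 2 also centred. Recovered pileups gave −0.50, which is not centred. The fold enrichments at Foxf2 and Foxc1 were the same within 5000 bp of a gene end, over the gene body and by separate intervals. Holding both lists to a −log10 q of at least 10 gave 2 dox-only regions, both at Foxf2, 4 shared and 1 control-only region. None of the 13 control-only regions reached that limit, and the 1 counted is the region inside Gmds with 8.36 in control cells, whose dox intervals fell below it. With windows of 200 kb there were 27 dox-only, 12 shared and 15 control-only regions, where the main window had 11, 7 and 13. Dox-only regions thus outnumbered control-only ones in the wider window and not in the main one. In the genome the shares were 35.5%, 37.5% and 27.1%. Within 5000 bp of its ends Foxq1 had 1 control interval, that of 3.92 over Gm11377, and none within 1000 bp. Foxq1 had 0 GLI1 sites within 50 kb, and Foxc1 had 4 within 200 kb. A comparison of pileups at summits within 100 bp was added after seeing the data and is given with the Gmds regions. Of the alternative values 60 stayed close to the value reported (within counting error, or for counts within the set factor), and 8, all given above, did not. Part of the 60 had little room to move, since the same interval gave the fold enrichment at Foxf2, or at Foxc1, in each setting. At weak shared regions the counting error was wide enough to admit a change of sign. The tally is therefore no measure of robustness. No paired analysis was possible because the replicates were pooled before peaks were called, and for the same reason no replicate could be left out. Depth limits the weak regions most: the dox list began at 11 reads and the control list at 9 reads over their uniform backgrounds.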

Other observations

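Farther inside Gmds, between 100 and 200 kb from Foxc1, strong regions stood in the dox list. A dox-only region of 2765 bp (chromosome 13, 32000740 to 32003504), with a fold enrichment of 14.9, contained the next GLI1 site (32002038 to 32002138), whose −log10 q of 64.7 was above those of all 3 sites at Foxf2. Next to it a shared region of 3065 bp (32007166 to 32010230) had 22.9 in dox and 3.57 in control cells, a centred log2 ratio of 2.81, and held no site. Both lie within Gmds, and the second also overlaps the long noncoding RNA gene Gm35672. On this side 12 regions were in the dox list alone, 5 were shared and 1 was in the control list alone. In the genome 35.5%, 37.5% and 27.1% of regions have these states. Apart from the one of 14.9, the dox-only regions on this side were weak, at 2.59 to 3.94, and several were close neighbours. Between 100 and 200 kb on the far side of Foxq1, 4 weak dox-only regions (at most 4.53) and 1 control-only region lay over the long noncoding RNA gene G630018N14Rik, 1 of them with a GLI1 site. Which gene any of these regions acts on was not measured.

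Among the 603 genes with a region at their ends in dox alone, 27 besides Foxf2 had exactly 3 GLI1 sites within 100 kb. Of all genes analysed 2.11% had at least 3, and the share with exactly 3 is not given here. By nearness in dox fold enrichment the first 5 were Cabp1 (18.8), which encodes a neuronal calcium-binding protein, Igfbp1 (16.4), which encodes a binding protein of insulin-like growth factors, Celsr2 (15.1), an adhesion receptor gene, Aldh3b3 (13.6), an aldehyde dehydrogenase gene, and Slc36a2 (11.2), an amino acid transporter gene. Foxf2 had 21.4.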
